A study of Mus musculus with 160 samples.

Results

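A set of 10 transcription factors, taken as factors of marrow stromal cells and their descendants, was followed in 160 single cells. Of these cells 78 were from old and 82 from young C57BL/6J mice. The factors are Foxc1, Ebf1, Ebf2, Ebf3, Prrx1, Runx1, Runx2, Foxn3, Zbtb20 and Zeb2, out of 22865 named genes in the table. The set was chosen by name as lineage factors of this stroma, and every row naming one of them was taken, with rows of the same factor summed. The cells had been sorted from bone marrow by the leptin receptor (LepR) and CD140a, and by the absence of CD45, Ter119 and CD31, which mark blood, red and endothelial cells. Single cells were captured on a Fluidigm C1 chip and their RNA was amplified and sequenced. The old mice were 24 months of age and the young mice 9 weeks per the sample labels (2 years and 10 weeks in the protocol text). No mouse carried a transgene or was given a treatment in the labels used here, and how many mice were pooled for a sort is not given there.

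Marrow stromal cells of this sort, also called CAR cells for their abundant Cxcl12, are the main source of Cxcl12 and stem cell factor for blood stem cells, and they give rise to marrow adipocytes and to osteoblasts. In mice, the forkhead factor Foxc1 and the early B cell factors Ebf1 and Ebf3 maintain these cells as a niche and hold them back from becoming fat or bone. Runx2 is the master regulator of osteoblast formation, and Runx1 and Runx2 together keep the niche cells from turning fibrotic. Prrx1 is a homeobox factor of limb mesenchyme and its skeletal progenitors, Zeb2 is a zinc finger repressor of epithelial genes, Zbtb20 is a BTB zinc finger repressor, and Foxn3 is a forkhead repressor.

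Every value is an FPKM, the number of fragments per kilobase of transcript scaled to the mapped fragments of the cell, so levels of different factors can be set side by side. A factor is called listed in a cell at 1 FPKM or more. Because no mouse is named for any cell, each age counted as 1 sample: no test was possible, the ages have no replicate check, and intervals of shares are exact (Clopper-Pearson) 95% intervals that cover counting error only. Age cannot be told apart here from the sex-linked RNA of the cells, and no capture chip is named for any cell. Xist was above 0 in 56 of 56 old and 0 of 59 young cells of good depth, and a Y-linked gene in 0 of 56 old and 48 of 59 young cells. None of the 11 blood, 5 erythroid and 6 endothelial markers in the table reached 1 FPKM in 10% of the cells of either age. Runx1 and Ebf1 are also factors of blood cells. Ptprc (CD45) was above 0 in 1 and Pecam1 (CD31) in 0 of the 115 deeper cells. Cxcl12, Lepr and Adipoq were listed in 94.8% to 99.1% of these cells, and Pdgfra, the gene of CD140a, in 44.6% of old and 40.7% of young ones.

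The FPKM themselves held a measure of depth. Values of the same gene in different cells stood in ratios of whole numbers, as whole fragments give, and from these ratios the relative depth of every cell was recovered. Depth spanned a 50762-fold range, the lowest cell lying at 6.96e-05 of the median cell. A single fragment of Foxc1 was worth 0.00767 FPKM in a cell of median depth and 110 FPKM in the shallowest cell. In the shallowest cells a factor could therefore not be seen at a low FPKM. For that reason the shares and the mean log2 differences of the factors are given for all cells and for the 115 deeper cells (56 old, 59 young) that had at least 0.1 of the median depth. Values of levels and of combinations are from the deeper cells unless all cells are named. The 45 shallower cells made up 28.2% of old and 28% of young cells. The deeper cells listed a median of 1321 genes in old and 1264 in young cells.

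Of the factors, 9 were common in this stroma by their rows and 1, Ebf2, was rare. The rows of Zbtb20 and Zeb2, and the row with most of the Runx2 signal, are shared with another gene. Their shares and medians can therefore not be given to these factors alone. Among the deeper cells of both ages together, Runx1 was the most frequent, listed in 91.3% (interval 84.6 to 95.8) with a median of 41.4 FPKM. Ebf1 followed at 83.5% (75.4 to 89.8), Ebf3 at 78.3% (69.6 to 85.4), Foxn3 at 73.9% (64.9 to 81.7) and Foxc1 at 72.2% (63 to 80.1). Runx2 was listed in 69.6% (60.3 to 77.8), Zeb2 in 66.1% (56.7 to 74.7), Zbtb20 in 54.8% (45.2 to 64.1), Prrx1 in 41.7% (32.6 to 51.3) and Ebf2 in 7.83% (3.64 to 14.3). In this order each factor's interval overlapped that of the next, except between Prrx1 and Ebf2. By median FPKM the order differed, with Foxn3 second at 14.8 FPKM, ahead of Ebf1 at 11.4, Ebf3 at 10.9 and Runx2 at 8.78. Counting any value above 0, which at this depth can be a single fragment, Ebf1 and Runx1 were each present in 114 of the 115 deeper cells.

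**Figure D1:**
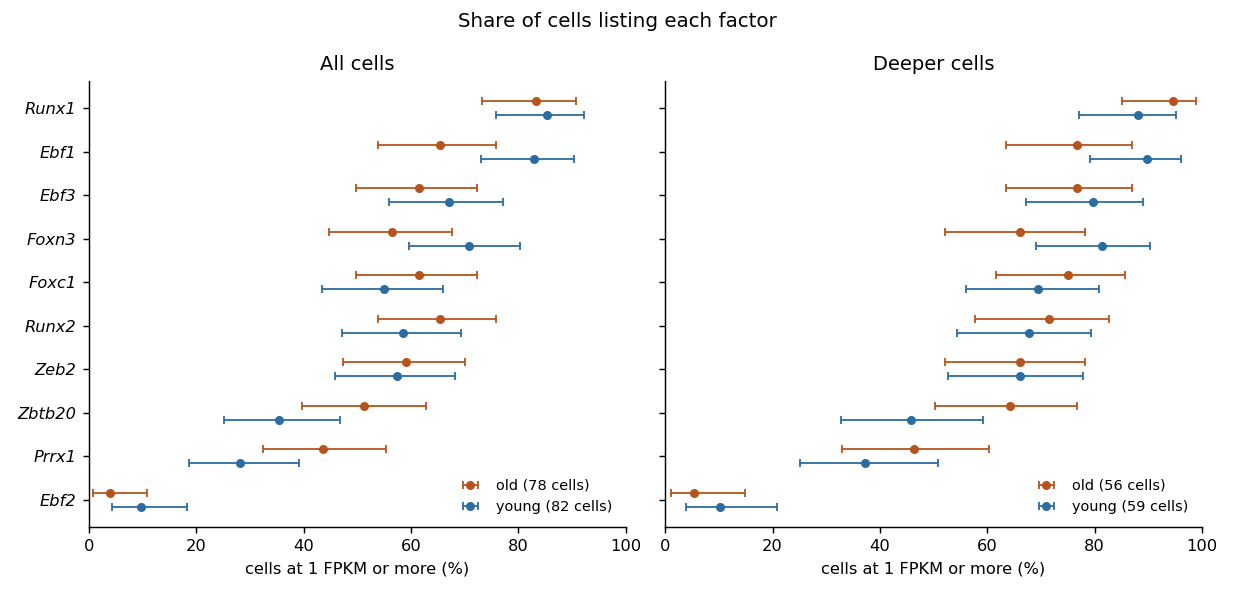
Share of cells (percent, horizontal axis) listing each of the 10 factors at 1 FPKM or more, in all cells (left) and in the deeper cells (right); points are shares and bars exact 95% binomial intervals, old cells above young cells. Runx1 sits at the top with 94.6% of old and 88.1% of young deeper cells, Ebf2 at the bottom with 5.36% and 10.2%, and the intervals of the ages overlap for every factor.

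At 1 FPKM the share differences, old minus young in all cells, ran from -17.5 points (Ebf1) to 15.9 points (Zbtb20). In all cells 5 factors had a higher share in old cells and 5 a lower one, and none differed by 20 percentage points, the size taken as a large difference. Over all 3828 genes listed in 10% of the cells of either age, 1.88% passed that size (0.627% higher and 1.25% lower in old cells). All the factors but Ebf2 were among those genes. The median difference of the 10 factors was -0.19 points, old minus young, against -0.47 points over all these genes. Differences of opposite sign cancel in that median, with Foxn3 at -14.3 and Prrx1 at 15.5 points. By the difference of mean log2(FPKM + 1) none of the factors reached 1, which 3.03% of genes did. The median over factors was 0.12 on that scale, against -0.003 over all genes. In the deeper cells 0 of 10 factors passed either size at 1 FPKM, which 2.67% (share) and 2.93% (log2) of 4677 genes did.

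**Figure D2:**
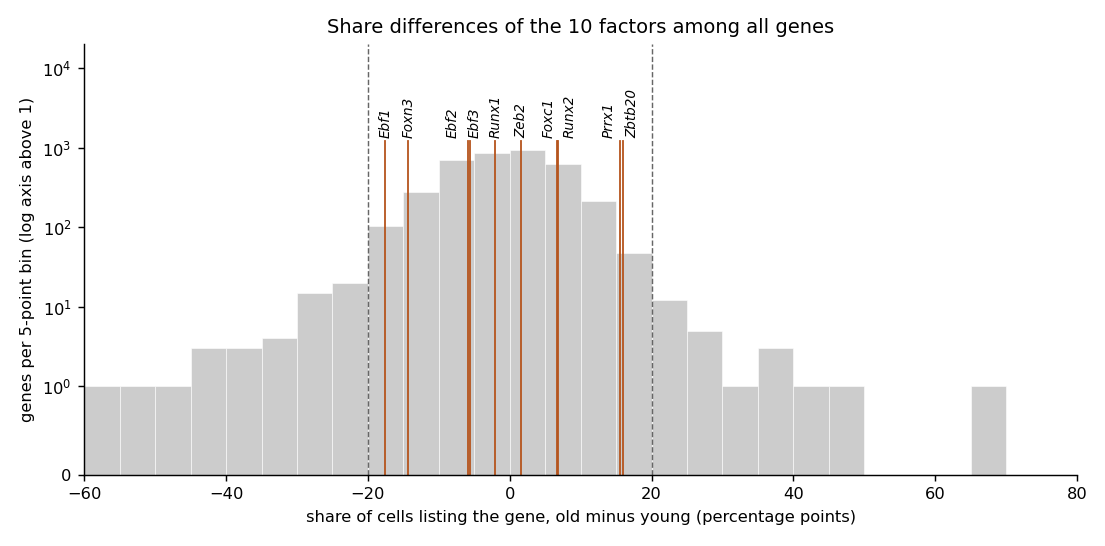
Difference in the share of cells listing a gene, old minus young (percentage points, horizontal axis), for the 3828 genes listed in 10% of all cells of either age (grey bars, number of genes per bin of 5 points, log axis above 1), with the 10 factors as vertical lines. All 10 factors lie between the dashed lines at -20 and 20 points, from Ebf1 at -17.5 to Zbtb20 at 15.9 points; Ebf2 is drawn although it was below the 10% filter.

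The early B cell factors, helix-loop-helix proteins first known from B cell commitment, all had a lower share in old cells, and for Ebf3 that order turned when cells with few listed genes were left out (1.12 points). Ebf1 was listed in 51 of 78 old cells (65.4%, 53.8 to 75.8) and 68 of 82 young cells (82.9%, 73 to 90.3). That difference of -17.5 points was the most negative of the 10. Among the deeper cells it was -13.0 points, with 43 of 56 old cells (76.8%) and 53 of 59 young cells (89.8%). Its level there ran from 0 to 269 FPKM with a median of 9.80 in old cells, and from 0.0098 to 686 FPKM with a median of 13.7 in young cells. The ranges of the ages overlapped. In mean log2(FPKM + 1) old cells were lower by -0.44 in the deeper cells and by -0.90 in all cells. In the shallower cells Ebf1 was listed in 8 of 22 old and 15 of 23 young cells.

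The mean FPKM of Ebf1 gave the opposite direction, 745.7 in old and 135.8 in young cells. One old cell, at 56348 FPKM, carried 96.9% of the old sum, and its relative depth was 0.0004. Without the shallower cells the means were 26.6 FPKM in old and 37.1 FPKM in young cells. The log2 ratio of means, old over young, was 2.45 in all cells and -0.47 in the deeper cells.

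Ebf3, the family member most tied to CAR cells in mice, was near equal between the ages. It was listed in 48 of 78 old cells (61.5%, 49.8 to 72.3) and 55 of 82 young cells (67.1%, 55.8 to 77.1). The deeper cells had shares of 76.8% in old and 79.7% in young cells. Levels there ran from 0 to 239 FPKM with a median of 8.31 in old cells, and from 0 to 111 FPKM with a median of 13.4 in young cells. The highest Ebf3 value was thus in an old cell and the higher median in young cells. The difference of mean log2(FPKM + 1) was -0.35 in all and -0.22 in deeper cells.

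Ebf2, known from brown fat precursors and immature osteoblasts in mice, was at 0 in 72 of 78 old and 65 of 82 young cells. It was listed in 3 old cells (3.85%, 0.80 to 10.8) and 8 young cells (9.76%, 4.31 to 18.3). The highest old cell reached 7.10 FPKM, and the highest young cell 38.8 FPKM. At 10 FPKM or more, Ebf2 was found in 0 of 56 deeper old cells and 4 of 59 deeper young cells (6.78%, 1.88 to 16.5). The exact upper limit for 0 of 56 cells is 6.38%, which lies within the interval of young cells. These intervals cover counting error only, so their overlap does not decide whether the ages differ. Counting any value above 0, Ebf2 was in 10.7% of the 56 old and 25.4% of the 59 young deeper cells. That difference was -14.7 points, old minus young. The fourth family member, Ebf4, was at 0 in all of the deeper cells.

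Ebf1 and Ebf3 were each common in the deeper cells, at 76.8% and 76.8% of old and 89.8% and 79.7% of young cells. Many cells with both are given by these shares alone. Ebf1 and Ebf3 without Ebf2 was the most frequent combination in the deeper cells, with 33 of 56 old cells (58.9%, 45 to 71.9) and 40 of 59 young cells (67.8%, 54.4 to 79.4). Ebf1 alone was listed in 8 old and 8 young cells, and Ebf3 alone in 7 old and 3 young cells. None of the 3 was listed in 5 old and 2 young cells. Every deeper cell that listed Ebf2, 3 old and 6 young, also listed Ebf1 or Ebf3, which were themselves listed in most cells.

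The RUNX factors bind DNA with the shared partner Cbfb. Runx1 had the highest median of the 10 factors in the deeper cells, and Runx2 stood behind Foxn3, Ebf1 and Ebf3. Runx1, best known for the birth of blood stem cells, was listed in 65 of 78 old cells (83.3%, 73.2 to 90.8) and 70 of 82 young cells (85.4%, 75.8 to 92.2). In the deeper cells the order turned, with 94.6% (85.1 to 98.9) of old and 88.1% (77.1 to 95.1) of young cells. Levels there ran from 0 to 413 FPKM with a median of 47.6 in old cells, and from 0.0236 to 209 FPKM with a median of 33.7 in young cells. Most of the 413 FPKM came from a second row of Runx1 that was above 0 in this 1 cell alone. That row stood at 403 FPKM when scaled to median depth, and the next highest old cell was at 240 FPKM. Runx1 was thus listed in most deeper cells of both ages, and the ages overlapped. The difference of mean log2(FPKM + 1) was 0.25 in all and 0.49 in deeper cells.

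Runx2 was listed in 51 of 78 old cells (65.4%, 53.8 to 75.8) and 48 of 82 young cells (58.5%, 47.1 to 69.3). Of its summed FPKM, 92.2% lay in a row that the table shares with Supt3, a neighbouring gene of the transcription machinery, so most of this signal cannot be given to Runx2 alone. Its own row was listed in 9 old and 9 young cells. The summed level in the deeper cells ran from 0 to 324 FPKM with a median of 8.13 in old cells, and from 0 to 73.7 FPKM with a median of 9.20 in young cells. The ages overlapped, and the mean log2 difference was 0.24 in all and 0.26 in deeper cells. Both RUNX factors were listed together in 39 of 56 old (69.6%, 55.9 to 81.2) and 36 of 59 young deeper cells (61%, 47.4 to 73.5). Runx1 without Runx2 was found in 14 old and 16 young cells, and Runx2 without Runx1 in 1 old and 4 young cells.

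Foxc1 was the factor with the highest mean log2 difference in the deeper cells, where old cells listed it at higher levels and not much more often. Its share was 75% (61.6 to 85.6) in old and 69.5% (56.1 to 80.8) in young deeper cells. The level ran from 0 to 93.0 FPKM with a median of 10.3 in old cells, and from 0 to 82.3 FPKM with a median of 3.36 in young cells. Among cells that listed Foxc1 the median was 18.8 FPKM in old and 5.00 FPKM in young cells. The mean log2(FPKM + 1) was 3.14 in old and 2.22 in young cells, a difference of 0.92, below the size of 1. In all 160 cells the shares were 61.5% and 54.9% in old and young cells, and the log2 difference was 0.76.

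The share difference of Foxc1 was wider at 5 and 10 FPKM than at 1 FPKM. At 5 FPKM or more it was found in 35 of 56 old deeper cells (62.5%, 48.5 to 75.1) and in 20 of 59 young deeper cells (33.9%, 22.1 to 47.4). That difference of 28.6 points passed the size of 20, as did 1.24% of 3298 genes in the same direction at that level, and none of the other factors did. At 10 FPKM it was 51.8% of old and 27.1% of young cells, a difference of 24.7 points, and 1.31% of 2515 genes passed 20 points toward old cells. With all cells, the 5 FPKM shares were 50% in old and 28% in young cells, 22 points apart, and 0.941% of 2657 genes passed 20 points toward old cells. These levels were among several tried. The median relative depth of the deeper cells was 1.25 in old and 1.41 in young cells. Sex-linked RNA also differed between the ages, so its part in the result cannot be told apart from age here and was not tested.

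**Figure D3:**
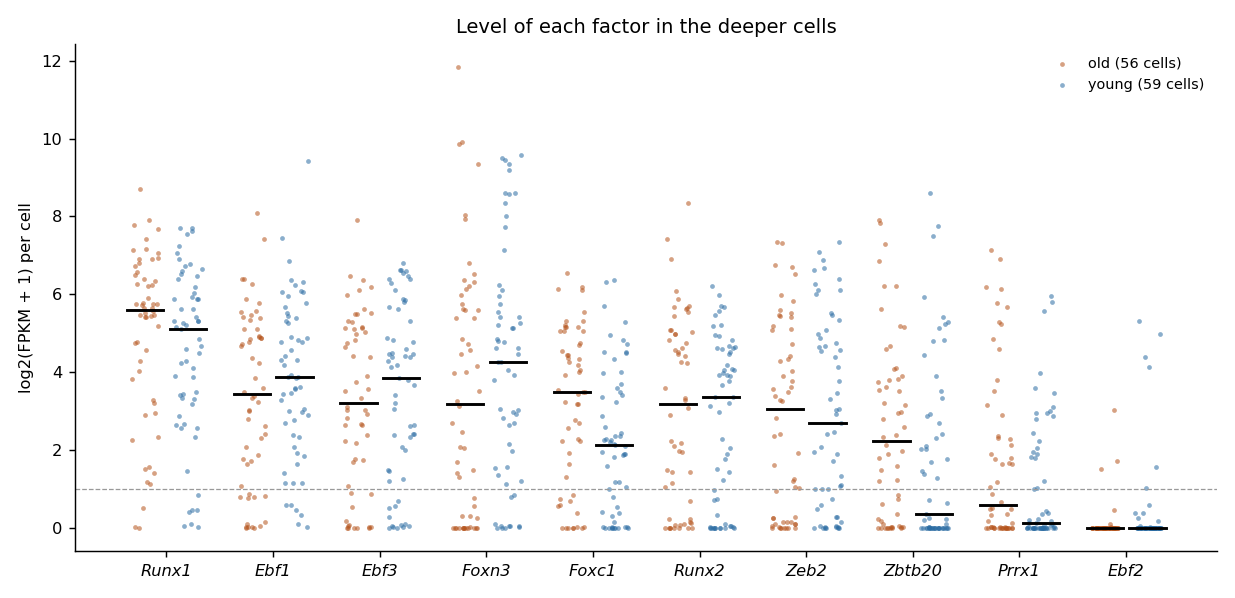
Level of each factor in the 115 deeper cells as log2(FPKM + 1), 1 point per cell, old cells left of young cells for each factor; black bars are medians and the dashed line marks 1 FPKM. The points of the ages overlap for every factor, with the median bar of Foxc1 (10.3 FPKM in old, 3.36 in young cells) and of Zbtb20 (3.70 and 0.287) higher in old cells and that of Foxn3 (8.13 and 18.2) lower.

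Prrx1 and Zbtb20 had the 2 largest positive share differences in all cells. Prrx1 was listed in 34 of 78 old cells (43.6%, 32.4 to 55.3) and 23 of 82 young cells (28%, 18.7 to 39.1), a difference of 15.5 points. It was in 46.4% of old and 37.3% of young deeper cells, 9.14 points apart. Levels there ran from 0 to 140 FPKM with a median of 0.516 in old cells, and from 0 to 61 FPKM with a median of 0.0949 in young cells. Most deeper cells of both ages thus lay under 1 FPKM, and the ages overlapped. In the shallower cells Prrx1 was listed in 8 of 22 old and 1 of 23 young cells. The log2 ratio of means was 1.53 in all and 1.31 in deeper cells, but by that measure 48.9% of genes in all cells and 44.7% in deeper cells passed a size of 1, as did 4 and 2 of the 10 factors. The mean log2 difference was 0.76 in all and 0.62 in deeper cells.

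Zbtb20 was listed in 40 of 78 old cells (51.3%, 39.7 to 62.8) and 29 of 82 young cells (35.4%, 25.1 to 46.7). Its only row is shared with BC002163. Its shares in the deeper cells were 64.3% (50.4 to 76.6) in old and 45.8% (32.7 to 59.2) in young cells, 18.5 points apart. Levels there ran from 0 to 240 FPKM with a median of 3.70 in old cells, and from 0 to 387 FPKM with a median of 0.287 in young cells. The highest value was in a young cell, and the ages overlapped, while the median of old cells lay above 1 FPKM and that of young cells below it. Counting any value above 0, Zbtb20 was in 87.5% (75.9 to 94.8) of old and 66.1% (52.6 to 77.9) of young deeper cells. That difference of 21.4 points passed the size of 20, as did 2.15% of 7580 genes toward old cells counted in this way, and none of the other factors did. The mean log2 difference was 0.61 in all and 0.73 in deeper cells.

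In young cells, Zbtb20 went with the number of genes a cell listed. Within the young deeper cells, cells with more listed genes than the median had Zbtb20 in 19 of 28 cells (67.9%, 47.6 to 84.1) and the others had it in 8 of 31 cells (25.8%, 11.9 to 44.6). In old deeper cells, split the same way, the numbers were 19 of 28 (67.9%) and 17 of 28 cells (60.7%, 40.6 to 78.5). Among cells with fewer listed genes the shares were 60.7% in old and 25.8% in young cells, and among the others 67.9% in both ages. The split lay at 1321 genes in old and 1264 in young cells. Whether the age difference of Zbtb20 itself differs with the number of listed genes was not tested.

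Foxn3 was lower in old cells by share. It was listed in 44 of 78 old cells (56.4%, 44.7 to 67.6) and 58 of 82 young cells (70.7%, 59.6 to 80.3). In the deeper cells the shares were 66.1% (52.2 to 78.2) in old and 81.4% (69.1 to 90.3) in young cells. Levels there ran from 0 to 3660 FPKM with a median of 8.13 in old cells, and from 0 to 770 FPKM with a median of 18.2 in young cells. An old cell held the highest value of any factor among the deeper cells, while 12 of 56 old and 3 of 59 young cells had no Foxn3 at all. The mean log2 difference was -0.59 in all and -0.74 in deeper cells. Among cells that listed Foxn3 the median was higher in old cells, 40.7 FPKM against 27.3 FPKM in young cells.

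Zeb2 did not separate the ages. It was listed in 46 of 78 old cells (59%, 47.3 to 70.0) and 47 of 82 young cells (57.3%, 45.9 to 68.2), and in 66.1% of the deeper cells of each age. Its row is shared with the microRNA gene Mir5129. Levels in the deeper cells ran from 0 to 160.2 FPKM with a median of 7.35 in old cells, and from 0 to 160.1 FPKM with a median of 5.45 in young cells. The ranges were the same to within 1 FPKM, and the mean log2 difference was -0.01 in all and -0.11 in deeper cells. The means over all cells, 20.4 FPKM in old and 327 FPKM in young cells, differed with 1 shallow young cell at 25348 FPKM, and in the deeper cells they were 22.8 FPKM in old and 24.2 FPKM in young cells. In old deeper cells Zeb2 was listed in 27 of 28 cells (96.4%, 81.6 to 99.9) with more listed genes and 10 of 28 (35.7%, 18.6 to 55.9) with fewer. In young deeper cells the matching shares were 67.9% and 64.5%. Other factors also had a higher share in old cells with more listed genes, among them Runx2 (89.3% against 53.6%), Foxc1 (89.3% against 60.7%) and Foxn3 (78.6% against 53.6%). These splits were not tested.

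Most cells listed several of the factors at once. In the deeper cells the median was 7 of 10 factors (range 2 to 9) in old and 6 (range 1 to 10) in young cells. At least 7 were listed in 30 of 56 old cells (53.6%, 39.7 to 67) and in 29 of 59 young cells (49.2%, 35.9 to 62.5). One young cell listed all 10. In all cells the median was 6 in both ages, and 1 old and 2 young cells listed none, each of them a shallower cell. The number followed how many genes a cell listed at all. Old deeper cells with more listed genes had a median of 8 factors and those with fewer 6, against 7 and 6 in young cells.

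**Figure D4:**
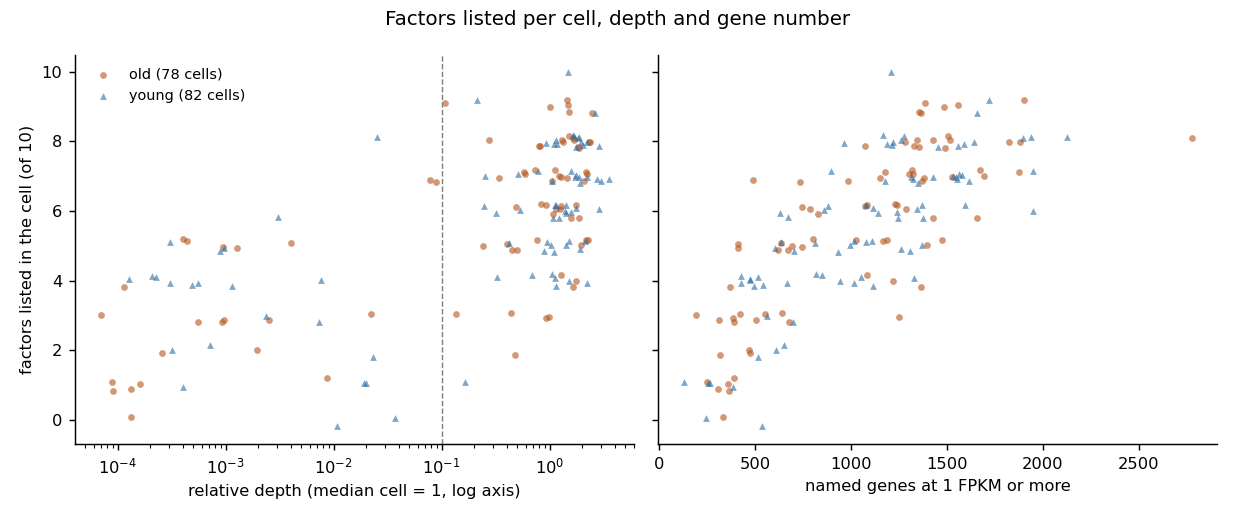
Number of the 10 factors listed in each of the 160 cells (vertical axis, points shifted slightly to show overlap) against the relative depth of the cell (left, log axis, dashed line at 0.1) and against the number of named genes it listed (right); circles are old and triangles young cells. Deeper cells have medians of 7 (old) and 6 (young) factors and shallower cells of 3 and 4, and the number of factors is higher in cells that list more genes.

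Pairs of factors were often listed in the same cell, as factors that are each common will be. Over the 45 pairs, the median share of deeper cells with both was 48.2% in old and 40.7% in young cells, and over all cells it was 38.5% in old and 31.7% in young cells. The most frequent pair was Ebf3 with Runx1 in old cells (75%, 61.6 to 85.6) and Ebf1 with Runx1 in young cells (79.7%, 67.2 to 89.0). Foxc1 and Ebf3, both needed for the niche in mice, were listed together in 32 of 56 old (57.1%, 43.2 to 70.3) and 33 of 59 young deeper cells (55.9%, 42.4 to 68.8). In the deeper cells Ebf3 was about as frequent with Foxc1 as without it. There it was listed in 76.2% of old cells with Foxc1 and 78.6% of those without, and in 80.5% and 77.8% of the matching young cells. Over all cells it was more frequent with Foxc1, in 72.9% (58.2 to 84.7) of old cells with Foxc1 and 43.3% (25.5 to 62.6) without, and in 77.8% (62.9 to 88.8) and 54.1% (36.9 to 70.5) of the matching young cells. There cells with Foxc1 listed a median of 1325.5 genes in old and 1277 in young cells, and cells without it 482.5 in old and 700 in young cells.

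The pairs described next were picked from the 45 in each age. Most of the Runx2 signal lies in the row shared with Supt3. In old deeper cells Runx2 was listed in 36 of 43 cells with Ebf1 (83.7%, 69.3 to 93.2) and in 4 of 13 without it (30.8%, 9.09 to 61.4). In young deeper cells Runx2 was listed in 67.9% of cells with Ebf1 and in 4 of 6 without it. Over all cells the shares with and without Ebf1 were 78.4% and 40.7% in old cells, and 61.8% and 42.9% in young cells. Deeper cells with Ebf1 listed a median of 1346 genes in old and 1277 in young cells, and cells without it 1229 and 1180.5 genes, and the part of gene number in these shares was not tested. Young deeper cells listed Zbtb20 in 27 of 52 cells with Runx1 and in 0 of 7 without it. Those 7 cells had a median of 942 listed genes, against 1295.5 in the 52 others.

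**Figure D5:**
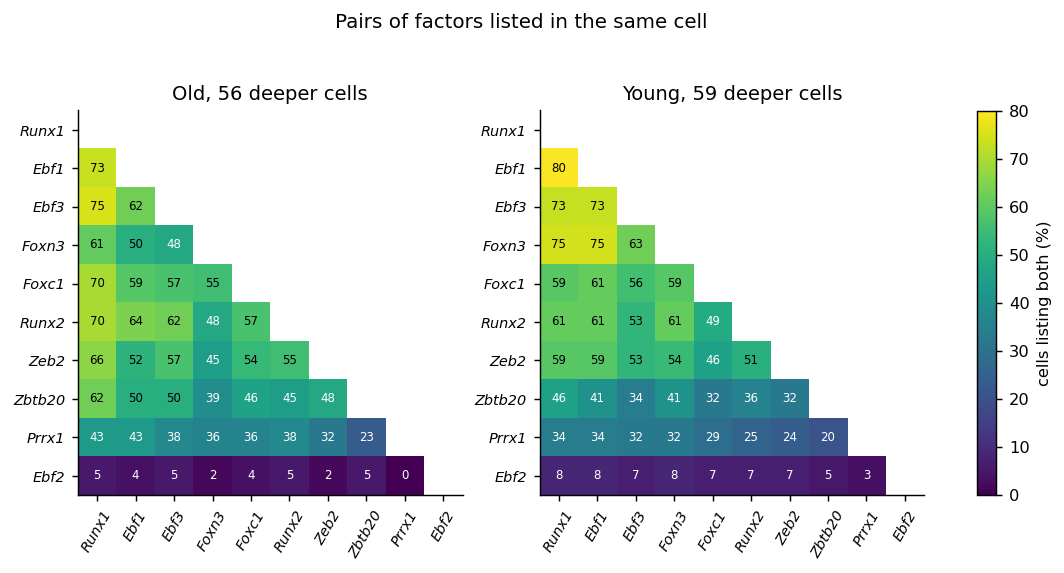
Share of the deeper cells in which both factors of a pair are listed at 1 FPKM or more (percent, colour and number), for the 45 pairs in 56 old cells (left) and 59 young cells (right). Pairs with Runx1 are the most frequent, up to 75% for Ebf3 in old and 80% for Ebf1 in young cells, and pairs with Ebf2 are at 8% or less in both ages.

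Between the levels of the factors, correlations from cell to cell were mostly weak. In sparse data such weak values do not show that the factors vary independently. Rank correlations of log2(FPKM + 1), with the number of listed genes taken out, are given as descriptions, since the cells differ in depth and the mouse of each is unknown. Over the 45 pairs the median correlation was 0.02 in the 56 old and 0.02 in the 59 young deeper cells. They ran from -0.31 (Foxc1 with Zbtb20) to 0.37 (Ebf3 with Zeb2) in old cells, and from -0.24 (Foxc1 with Runx1) to 0.21 (Ebf1 with Zeb2) in young cells. No pair reached 0.4 in any set of cells. Across all 160 cells, no other gene among 1048 candidates reached 0.4 with any of the 9 factors other than Ebf2, which was too rare for the search. In the 115 deeper cells Ebf1 with Jund, at 0.41, was the one pair that did. The closest over all cells was Cxcl14, a chemokine, with Zeb2 at 0.35.

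Correlations of the factors with the products of niche cells were also weak in all cells. Among 120 pairs of a factor with a niche or bone gene across all 160 cells, correlations lay between -0.21 (Prrx1 with Adipoq) and 0.22 (Ebf2 with Adipoq). In the 115 deeper cells they lay between -0.31 (Zbtb20 with Csf1) and 0.30 (Ebf2 with Adipoq). Across all 160 cells Foxc1 stood at 0.15 with Cxcl12 and 0.03 with Kitl, the stem cell factor, and Ebf3 at 0.03 and 0.04. In the 115 deeper cells Foxc1 stood at 0.13 with Cxcl12 and 0.04 with Kitl, and Ebf3 at 0.06 and -0.07. These weak values in sparse data are no finding. The highest value within an age was that of Foxc1 with Spp1, the bone matrix protein osteopontin, at 0.54 in the 59 young deeper cells and -0.17 in the 56 old ones. It was the highest over the 120 pairs looked at in each age. Spp1 was listed in 28.6% (17.3 to 42.2) of old and 83.1% (71 to 91.6) of young deeper cells.

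Relatives and partners of the 10 factors were mostly rarer than the factors themselves. Of 14 partners and other members of the EBF and RUNX families, 7 were listed in 10% of the deeper cells of either age and 0 passed the size of 20 points. The most frequent was Runx1t1, a corepressor of the ETO family, in 48.2% of old and 30.5% of young cells. It was followed by the corepressor Tle2 (16.1% and 16.9%) and by Runx3 (14.3% and 10.2%), while Cbfb was listed in 12.5% of old and 6.78% of young cells. Of 22 forkhead genes measured, 6 were listed at that rate, led by Foxp1 with 58.9% of old and 67.8% of young cells, Foxn2 with 19.6% and 20.3%, and Foxo1 with 8.93% and 16.9%. Foxc2, the paralog of Foxc1, was listed in 4 old and 2 young cells. Of 17 other BTB zinc finger genes 7 were listed at that rate, led over all cells by Zbtb38, Bcl6 and Zbtb44, and 0 of the forkhead or BTB genes passed 20 points. Zeb1, the paralog of Zeb2, was listed in 2 old and 4 young cells, and Prrx2, the paralog of Prrx1, was at 0 in all of the deeper cells. Within each of these pairs of paralogs a single one was common in this stroma.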

How the data were processed

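RNA of 160 single cells, each a GEO sample of its own, was given by the authors as 1 deposited table of FPKM per gene and cell. Per the submitters' processing notes, Cufflinks 2.1.1 and the mouse build mm9 were used. The sources used here do not give its filters, its read numbers or how shared reads were treated. No count model was used. Of 31199 rows, 7751 had no name and entered no comparison. Groups came from the age in the labels. Per the labels' protocols, wells without a single intact cell were removed after microscopy, so no doublet caller was run.

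From these values the share of cells at 1 FPKM, log2(FPKM + 1) and its mean, and co-listing were computed with numpy 2.4.6, pandas 2.3.3 and scipy 1.17.1. Intervals are exact binomial. Relative depth came from the most frequent ratio between the FPKM of 2 cells, and 99.1% of 12720 cell pairs fitted the recovered depths within 0.01 on the natural log scale. Depth recovery was tested on simulated cells, whose depths did not go as low as those of the shallowest cells here. Share and log2 differences were tested on resampled young cells with some genes changed. Co-listing and correlations were not tested in this way. Large differences were set at 20 points of share, or 1 on the log2 scale. Genes were tested for size where listed in 10% of the cells of an age, or, for the ratio of means, at a mean of 1 FPKM.

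The members and gene lists were chosen with earlier results of these data known. All 10 members are named. The 3 genes with the highest share are named from the lists of partners, forkhead, BTB and other transcription factors, and fewer from the fat, bone, cartilage and homeobox lists. Genes past a size in the deeper cells are also named, the sex-linked list aside. Cbfb, Foxc2, Zeb1, Prrx2 and Ebf4 were added as the partner and paralogs of members. Pparg, Sp7 and Sox9 were picked by name, outside this rule. Genes like a member are those with a partial rank correlation of 0.4 among genes listed in 25% of cells. The limit of 0.1 for deeper cells, the levels of 5 and 10 FPKM within them, and the correlations within them were chosen after seeing the data. There were 14 alternatives, of which the one with the deeper cells alone was added after seeing the data, and their effect is given in the closing section.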

Additional observations from a re-analysis of the deposited data

Results flagged for a closer look

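Rows with no gene name, which no comparison used, held a median of 43.8% of the summed FPKM in old cells and 47.2% in young cells. They were singled out because a signal of this size lies outside the measurement reported here.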

How the results depend on the processing

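Old minus young, 6 of the 10 factors kept the sign of their share difference in all 9 alternatives that touch it: Foxc1 (4.35 to 22 points), Prrx1 (8.51 to 17.6) and Zbtb20 (9.85 to 34.3) were higher in old cells, Ebf1 (-17.5 to -10.6), Ebf2 (-13.0 to -1.19) and Foxn3 (-24.6 to -2.75) lower. Runx1, Runx2, Ebf3 and Zeb2 took both signs. Of the log2 differences, 7 kept their sign in all 10 alternatives. Ebf1 turned with the ratio of means (2.45), Foxn3 turned in 2 alternatives and Zeb2 in 4. With any FPKM above 0 counted as listed, 3 factors in place of 5 had a higher share in old cells. The median co-listing of pairs was 35% at 1 FPKM, 57.5% counting any FPKM above 0, 19.4% at 5 FPKM and 12.5% at 10 FPKM. The median number of factors per cell was equal in both ages and differed by 1, old above young, with cells of few listed genes left out and in the deeper cells alone. The median log2 difference over factors was 0.12, and 0.38 as a log2 ratio of means, where single shallow cells carry much of a sum. No paired analysis was possible because each sample is 1 cell and the cell numbers of the ages are names only. Depth limits the shallower cells, where 1 fragment of Foxc1 can be worth 110 FPKM, so neither a 0 nor a high value there gives a level. No result could be checked against replicate mice.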

Other observations

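Among other transcription factors the most frequent in the deeper cells were Maf (85.7% of old and 81.4% of young cells), Nfia (76.8% and 81.4%) and Tcf7l2 (69.6% and 78%). Tcf4, the E protein partner of many helix-loop-helix factors, was listed in 57.1% (43.2 to 70.3) of old and 35.6% (23.5 to 49.1) of young cells, past the size of 20 points. Cebpb, which starts fat cell formation, was in 44.6% (31.3 to 58.5) of old and 20.3% (11 to 32.8) of young cells, also past it, as were 2.67% of all 4677 genes in these cells. Of 12 factors of fat formation 8, of 12 of bone 5 and of 6 of cartilage 2 were listed in 10% of the cells of either age, led over all cells by Klf9, Sox4 and Trps1. Pparg, Sp7 and Sox9 were picked by name and do not stand for their lists. Pparg, the master regulator of adipocytes, was listed in 4 old and 6 young cells. Sp7, which acts after Runx2 in osteoblasts, was listed in 3 old and 3 young cells, and Sox9, the cartilage factor, in 7 old and 2 young cells. Of 21 homeobox and epithelial repressor genes 8 reached that rate and 0 passed a size, with Snai2 in 33.9% of old and 50.8% of young cells. Of 14 niche and bone genes Spp1 and Igf1 passed the size of 20 points (2.67% of all genes did), both lower in old cells, and Igf1 was listed in 48.2% of old and 74.6% of young cells. Vcam1 and Ibsp were lower in old cells by the log2 size, at -2.52 and -1.32, a size passed by 2.93% of all genes.

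Within the deeper cells of an age some genes varied with a factor more than in all cells. Runx1 stood at a partial rank correlation of 0.63 with Sptbn1, a spectrin of the membrane skeleton, in the 59 young deeper cells. Ebf1 stood at 0.51 with Jund, 0.47 with Jun and 0.45 with Egr1, all immediate early factors or their relatives, in the same cells. In the 56 old deeper cells the highest was Ebf3 with Son at 0.50. These are among the highest of 1048 genes looked at for each factor in each age, given as a description.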
